A study of Mus musculus with 6 samples.

Results

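The light chain genes of mouse B cells are described here, as every gene of the deposited table whose symbol begins with Igkv, Iglv, Igkc or Iglc. The rule found 168 of 55421 genes. They are 160 kappa variable genes (*Igkv*), 3 lambda variable genes (*Iglv1*, *Iglv2* and *Iglv3*), the kappa constant gene *Igkc* and 4 lambda constant genes (*Iglc1* to *Iglc4*). In the annotation, 103 are functional or potentially functional variable genes, 60 are variable pseudogenes and 5 are constant genes. Over the 6 libraries, 108 of them averaged 10 or more normalized counts, namely 100 *Igkv*, 3 *Iglv* and all 5 constant genes. Only these entered a test of single genes. Another 45 had lower means, and 15 were at 0 in every library.

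Splenic B cells of mice on a C57BL6/J background, male and female and over 6 weeks old, were activated ex vivo for 24 h with 5 µg/ml LPS together with 5 ng/ml IL-4. The GFP+ fraction was then sorted and sequenced as 1 library for each of 6 mice. The 3 control mice (WT) carried the Rosa mT/mG reporter and CD21-cre with intact *Hnrnpl*, and the 3 hnRNPL-deficient mice carried the same reporter and Cre with floxed *Hnrnpl* alleles (Hnrnpl F/F). Cre is thus present in both groups. Per the study, CD21-cre deletes mostly in peripheral B cells and also excises in other tissues during development. Light chain genes are generally rearranged in the bone marrow. When deletion took place relative to rearrangement was not tested here. hnRNPL is an RNA-binding protein that regulates pre-mRNA splicing.

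A B cell assembles its light chain gene from 1 variable (V) and 1 joining (J) segment, which the transcript then carries spliced to a constant (C) exon. Cells rearrange the kappa locus first, and most mouse B cells express kappa. The kappa locus holds a long array of V segments and a single constant gene. The small mouse lambda locus holds 3 V segments and several J-C pairs, each C exon next to its own J segment. *Iglv1* lies directly upstream of the *Iglj3*-*Iglc3* and *Iglj1*-*Iglc1* pairs, whereas *Iglv2* and *Iglv3* lie farther upstream, before the *Iglj2*-*Iglc2* pair. *Iglc4* belongs to a pair that is generally regarded as nonfunctional.

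The first bases of the lambda constant exons are shown because the results turn on telling these genes apart. All lie on the minus strand of chromosome 16 in GRCm38, at chr16:19061950-19062069 (*Iglc1*), chr16:19198731-19198850 (*Iglc2*), chr16:19065560-19065679 (*Iglc3*) and chr16:19195191-19195310 (*Iglc4*). The sequences are GENCODE reference transcripts, and capitals mark bases that differ from *Iglc1*.
Iglc1: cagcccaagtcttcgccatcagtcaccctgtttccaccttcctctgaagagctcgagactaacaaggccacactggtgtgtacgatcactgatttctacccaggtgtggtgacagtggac
Iglc2: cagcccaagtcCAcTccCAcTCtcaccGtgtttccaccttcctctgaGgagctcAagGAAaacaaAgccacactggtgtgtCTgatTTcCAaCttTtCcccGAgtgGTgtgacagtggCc
Iglc3: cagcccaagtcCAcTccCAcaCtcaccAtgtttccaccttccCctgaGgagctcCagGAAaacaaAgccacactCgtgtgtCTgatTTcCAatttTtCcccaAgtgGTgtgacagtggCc
Iglc4: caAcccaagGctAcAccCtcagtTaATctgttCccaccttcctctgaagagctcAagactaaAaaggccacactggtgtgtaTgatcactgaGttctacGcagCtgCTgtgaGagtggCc
In these 120 bases *Iglc2* differed from *Iglc1* at 28 positions, *Iglc3* at 27 and *Iglc4* at 19, whereas *Iglc2* and *Iglc3* differed from each other at 7. Over the whole coding part, *Iglc2* and *Iglc3* were 96.5% identical, with a longest identical run of 79 bases, and *Iglc1* and *Iglc3* were 75.7% identical. Of all stretches of 100 bases, the length of 1 read, none in *Igkc*, *Iglc1*, *Iglc2*, *Iglc3* or *Iglc4* occurred in a transcript of another gene. A read inside a constant exon therefore differs between these genes by at least 1 base, although a shorter aligned part of a read may not.

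The lambda variable genes *Iglv1* and *Iglv2* are the closest pair among the lambda V segments. Their second coding exons differed at 9 of 305 bases (97.0% identity), and 5 of the 292 stretches of 100 bases in *Iglv1* also occurred in *Iglv2*. Part of each exon is shown with capitals at the 2 bases that differ between them, from chr16:19085172-19085291 (*Iglv1*) and chr16:19260556-19260675 (*Iglv2*), both on the minus strand.
Iglv1: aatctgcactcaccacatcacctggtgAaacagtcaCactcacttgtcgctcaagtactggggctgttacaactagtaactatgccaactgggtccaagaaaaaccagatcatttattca
Iglv2: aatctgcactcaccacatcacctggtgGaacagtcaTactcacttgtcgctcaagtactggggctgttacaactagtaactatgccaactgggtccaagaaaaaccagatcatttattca
Reads of *Iglv1* and *Iglv2* can therefore not always be told apart, and their separate values are uncertain to that extent. *Iglv3* shared no such stretch with another gene.

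The libraries held between 40395186 and 75180749 reads on genes. *Hnrnpl* itself had 24371, 25580 and 24174 normalized counts (reads divided by the library's size factor) in WT libraries 1, 2 and 3, and 2178, 1519 and 1297 in hnRNPL-deficient libraries 1, 2 and 3. Every library thus had the level that its label gives. Values below are given in this order. Across all 17640 tested genes, 1284 (7.28%) were called higher and 719 (4.08%) lower in hnRNPL-deficient cells, where a call needs an adjusted p (Benjamini-Hochberg) under 0.1 together with a change of 1.5-fold or more in limma on log2(normalized count + 1). Fold changes are on that log2 scale, with the standard error (SE). *Xist* was abundant in WT library 3 and hnRNPL-deficient library 2 (98507 and 98219 normalized counts) and at most 7.21 in the 4 others, so each group held 1 such library.

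Lambda light chain RNA was more abundant in hnRNPL-deficient B cells, while no difference in kappa RNA was detected. Of the 108 light chain genes tested, 5 were called higher (*Iglc1*, *Iglc2*, *Iglv1*, *Iglv2* and *Iglv3*) and 0 lower at the thresholds above, beside 7.28% higher and 4.08% lower among all tested genes. By edgeR's quasi-likelihood test and by DESeq2, each on the reads of 5 libraries without hnRNPL-deficient library 2, 7 were called higher and 1 lower. On the same 5 libraries limma also called 7 higher and 1 lower, with 978 and 680 over all genes. The 3 results are therefore not separate support. Of all 17640 genes, edgeR called 1144 higher and 578 lower, and DESeq2 called 1180 higher and 721 lower. The 7 included 2 kappa segments, *Igkv4-50* and *Igkv4-86*. All 5 calls of the main limma test concern the lambda locus. They cover each of its 3 V segments and 2 of its 4 constant genes.

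*Iglc1*, the constant exon at the downstream end of the lambda locus (chromosome 16, 19061618 to 19062071), had the largest fold change among the called members. Its normalized counts were 3477, 3718 and 3576 in WT against 11723, 11259 and 11148 in hnRNPL-deficient cells. The groups were far apart, since the lowest hnRNPL-deficient library was above the highest WT library by more than the whole WT range. The fold change was 1.66 on the log2 scale (SE 0.0855, adjusted p = 3.34e-05 from limma), and 11 genes of the 17640 had a smaller p.

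*Iglc2*, the constant exon paired with *Iglj2* (19198396 to 19200351), had 4454, 5220 and 5146 normalized counts in WT against 7712, 8892 and 8131 in hnRNPL-deficient cells. All hnRNPL-deficient libraries exceeded all WT libraries, and the fold change was 0.74 on the log2 scale (SE 0.104, adjusted p = 0.00403 from limma). 

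*Iglc3*, the constant exon that lies between *Iglv1* and *Iglc1* (19065230 to 19065681), went the other way. It had 6687, 8210 and 7620 normalized counts in WT against 4957, 5918 and 4564 in hnRNPL-deficient cells. Every hnRNPL-deficient library was below every WT library, with a fold change of -0.55 on the log2 scale (SE 0.126, adjusted p = 0.0285 from limma), which passed the p threshold but not the fold threshold. It was called lower without WT library 1 (-0.63), without hnRNPL-deficient library 2 (-0.65), by edgeR (-0.62) and by DESeq2 (-0.64).

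*Iglc4* (19194999 to 19195312) was close to the detection limit, with 0, 18.2 and 22.2 normalized counts in WT against 29.8, 24.2 and 31.5 in hnRNPL-deficient cells. A count of 0 in WT library 1 allows up to 3.48 normalized counts (3 reads, for counting error only), so this library lay apart from the other WT libraries. The gene was not called (adjusted p = 0.279 from limma).

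*Igkc*, the kappa constant gene (chromosome 6, 70726435 to 70726966), was the most abundant light chain gene by count and per length. It had 37978, 44211 and 39287 normalized counts in WT against 40505, 44650 and 36304 in hnRNPL-deficient cells. The groups overlapped, and the fold change was -0.00 on the log2 scale with an SE of 0.116 (adjusted p = 0.992 from limma). In bulk RNA, more cells of a type and more RNA per cell cannot be told apart, here and in what follows.

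**Figure D1:**
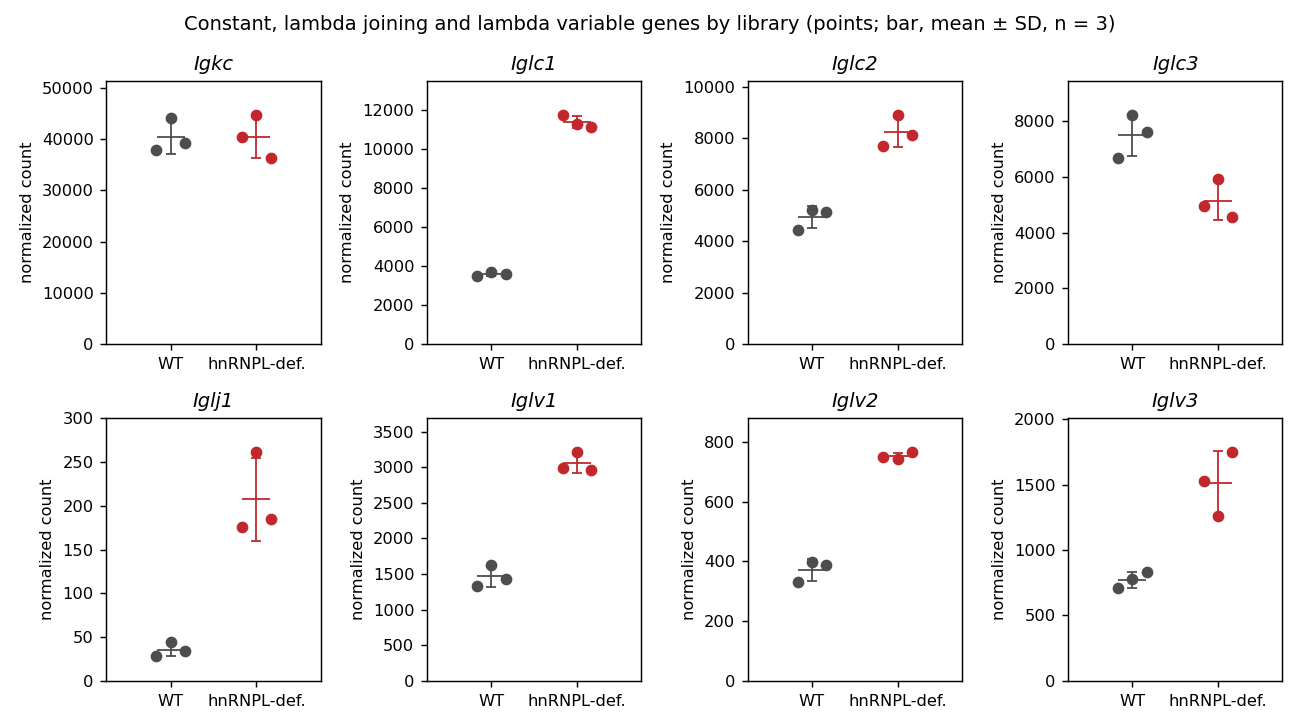
Normalized counts of *Igkc*, 3 lambda constant genes, *Iglj1* and the 3 lambda variable genes in each library (points), with the mean ± SD of 3 mice per group as bars; each panel has its own axis from 0. *Igkc* overlapped between groups at about 40492 and 40486, *Iglc3* was lower in hnRNPL-deficient cells, and the other 6 genes were higher in every hnRNPL-deficient library.

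The 3 lambda V segments rose by similar amounts. *Iglv1* (19085017 to 19085500) had 1337, 1632 and 1430 normalized counts in WT against 2991, 3213 and 2966 in hnRNPL-deficient cells, a fold change of 1.06 on the log2 scale (SE 0.110, adjusted p = 0.00114 from limma). *Iglv2* (19260401 to 19260859), the V segment at the upstream end of the locus, had 330, 397 and 388 in WT against 748, 743 and 766 in hnRNPL-deficient cells, a fold change of 1.02 (SE 0.135, adjusted p = 0.00314 from limma). *Iglv3* (19241207 to 19241690) had 709, 776 and 830 in WT against 1525, 1260 and 1749 in hnRNPL-deficient cells, a fold change of 0.96 (SE 0.146, adjusted p = 0.00550 from limma). None of the 3 overlapped between groups, and their fold changes differed by less than their standard errors.

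Summed over the locus, *Iglv* counts were 2610 ± 217.6 in WT against 5321 ± 141.2 in hnRNPL-deficient cells (SD, n = 3 each), a ratio of 2.04. Summed *Iglc* counts were 16049 ± 1303 and 24796 ± 1156, a ratio of 1.55. In contrast, the summed *Igkv* counts were 37469 ± 1885 and 37484 ± 1578, a ratio of 1.00, with overlapping groups. All light chain genes together took 0.162% ± 0.00886 of normalized counts in WT against 0.188% ± 0.00420 in hnRNPL-deficient cells.

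The kappa to lambda balance was next computed within each library, which does not depend on the scaling between libraries. Lambda genes made up 27.8%, 28.0% and 29.4% of the light chain constant counts in WT against 37.6%, 36.9% and 39.7% in hnRNPL-deficient cells. The mean rose from 28.4% ± 0.885 to 38.1% ± 1.45 (SD, n = 3) without overlap between the groups. The two-sided exact permutation p was 0.1, the smallest that 3 against 3 libraries can give, here and for the other shares. The kappa to lambda ratio of constant counts was 2.60, 2.58 and 2.40 in WT against 1.66, 1.71 and 1.52 in hnRNPL-deficient cells. Per kb of exon, the lambda share was 29.4%, 29.6% and 31.0% in WT against 39.4%, 38.5% and 41.3% in hnRNPL-deficient cells. In WT, the ratio of constant to V counts averaged 6.15 for lambda but 1.08 for kappa. The level of the lambda share therefore depends on the segment type counted. The constant counts alone do not give the fraction of light chain RNA that is lambda.

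Among the V counts, lambda was rarer but shifted in the same direction. Its share was 5.66%, 7.11% and 6.83% in WT against 11.9%, 12.6% and 12.8% in hnRNPL-deficient cells (exact permutation p = 0.1). The kappa to lambda ratio of V counts was thus 16.7, 13.1 and 13.6 in WT against 7.44, 6.91 and 6.80 in hnRNPL-deficient cells. For both shares, every hnRNPL-deficient value was above every WT value. A split of the libraries by *Xist* must therefore give the same direction and is no separate check.

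**Figure D2:**
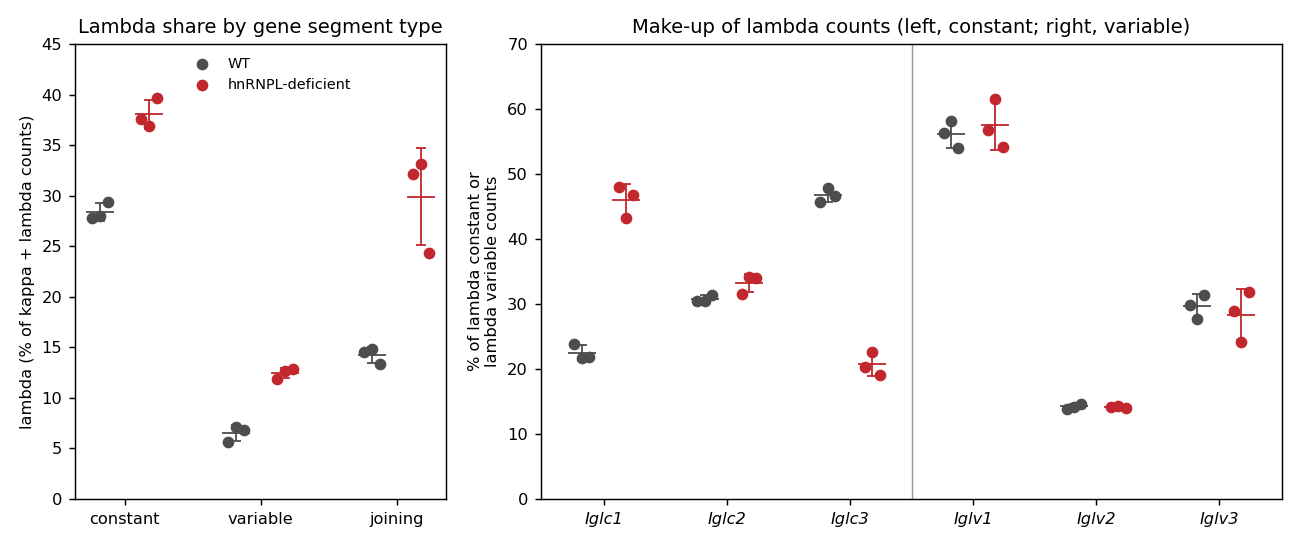
Lambda counts as a percentage of kappa plus lambda counts for constant, variable and joining segments (left), and each gene as a percentage of the lambda constant or lambda variable counts (right), per library (points) with the mean ± SD of 3 mice. The lambda share was higher in all hnRNPL-deficient libraries for each segment type; *Iglc1* and *Iglc3* exchanged places among the lambda constant counts, and the shares of the 3 *Iglv* genes overlapped between groups.

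Inside the lambda locus the constant genes shifted against each other. *Iglc1* made up 23.8%, 21.7% and 21.9% of the lambda constant counts in WT against 48.0%, 43.1% and 46.7% in hnRNPL-deficient cells. *Iglc3* made up 45.7%, 47.8% and 46.6% in WT against 20.3%, 22.7% and 19.1% in hnRNPL-deficient cells. The *Iglc1* to *Iglc3* ratio was therefore 0.481 ± 0.0350 in WT against 2.24 ± 0.292 in hnRNPL-deficient cells (SD, n = 3; exact permutation p = 0.1). 

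*Iglc2* moved little as a share, from 30.8% ± 0.583 to 33.2% ± 1.44, although the groups did not overlap (exact permutation p = 0.1). Levels of different genes were compared per length. Per kb of exon, *Iglc1*, *Iglc2* and *Iglc3* made up 24.3%, 24.7% and 50.8% of lambda constant counts in WT on average, and 50.2%, 26.9% and 22.7% in hnRNPL-deficient cells. *Iglc3* was thus first in every WT library and *Iglc1* first in every hnRNPL-deficient library.

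No such shift was seen among the V segments. *Iglv1* made up 56.3%, 58.2% and 54.0% of lambda V counts in WT against 56.8%, 61.6% and 54.1% in hnRNPL-deficient cells. *Iglv2* made up 14.2% ± 0.404 and 14.1% ± 0.146, and *Iglv3* 29.6% ± 1.84 and 28.3% ± 3.91. The groups overlapped for all 3 genes.

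Counts on lambda C exons exceeded those on lambda V exons in both groups. Their ratio was 6.15, 6.12 and 6.18 in WT against 4.64, 5.00 and 4.36 in hnRNPL-deficient cells, without overlap (exact permutation p = 0.1). For kappa, the same ratio of *Igkc* to summed *Igkv* counts was 1.08 ± 0.124 and 1.08 ± 0.139, with overlapping groups.

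The J segments, which lie outside the rule, were compared because each C exon follows its own J segment. *Iglj1*, next to *Iglc1*, was called higher, with 29.0, 44.1 and 34.4 normalized counts in WT against 175.8, 261.5 and 185.0 in hnRNPL-deficient cells. Its fold change was 2.50 on the log2 scale (SE 0.268, adjusted p = 0.00129 from limma). *Iglj3*, next to *Iglc3*, had 5.80, 12.1 and 10.7 in WT against 8.11, 14.1 and 9.59 in hnRNPL-deficient cells, and the groups overlapped. The segments, at chr16:19063225-19063262 and chr16:19067041-19067078 on the minus strand, are shown with capitals where *Iglj3* differs from *Iglj1*.
Iglj1: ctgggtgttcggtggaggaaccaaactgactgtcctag
Iglj3: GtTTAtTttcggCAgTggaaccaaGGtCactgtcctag
They differed at 11 of 38 bases. Of the 8 J segments tested, 1 was called higher and 0 lower. None of *Igkj1* to *Igkj5* was called, with fold changes between 0.03 and 0.30 on the log2 scale and overlapping groups. *Iglj2*, which lies inside the annotated span of *Iglc2* (19200198 to 19200235), was at 0 in every library. *Iglj3p*, a further annotated lambda J segment, had 19.7, 51.9 and 39.0 in WT against 29.8, 22.2 and 27.4 in hnRNPL-deficient cells, with overlap. Its WT mean of 36.9 was the highest of the lambda J segments, beside 35.8 for *Iglj1*. As a share of all J counts, with *Iglj3p* included, lambda was 14.2% ± 0.785 in WT against 29.9% ± 4.80 in hnRNPL-deficient cells. J segments are shorter than a read, so their counts are low and depend on how reads across V-J and J-C joints were assigned, which is not given in the sources used here.

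Other transcripts of the lambda locus (19061618 to 19260859) also differed. These genes are not members and were chosen after their values were seen. Of the 4 further genes tested inside the locus, 2 were called higher and 1 lower. The antisense transcript *2010309G21Rik*, which spans *Iglv1*, *Iglc3* and *Iglc1* on the opposite strand (19051367 to 19106749), had 597, 498 and 549 normalized counts in WT against 3169, 3002 and 3402 in hnRNPL-deficient cells (fold change 2.54 on the log2 scale, SE 0.116, adjusted p = 2.50e-05 from limma). The counting was strand-specific, so its reads were separated from those of the lambda genes by strand.

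*Gm43388*, a long noncoding RNA on the lambda strand between *Iglv3* and *Iglc2* (19212660 to 19236776), was lower. It had 744, 853 and 760 normalized counts in WT against 218, 204 and 358 in hnRNPL-deficient cells (-1.64 on the log2 scale, SE 0.220, adjusted p = 0.00342 from limma). *Gm42870*, on the opposite strand within it (19231333 to 19234802), had 443, 553 and 613 in WT against 1259, 2096 and 3964 in hnRNPL-deficient cells (2.04, SE 0.356, adjusted p = 0.00967 from limma), with a wide spread among the latter. Within 1 Mb on either side, 1 of 29 tested genes was called higher and 0 lower, beside 7.28% and 4.08% of all genes.

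**Figure D3:**
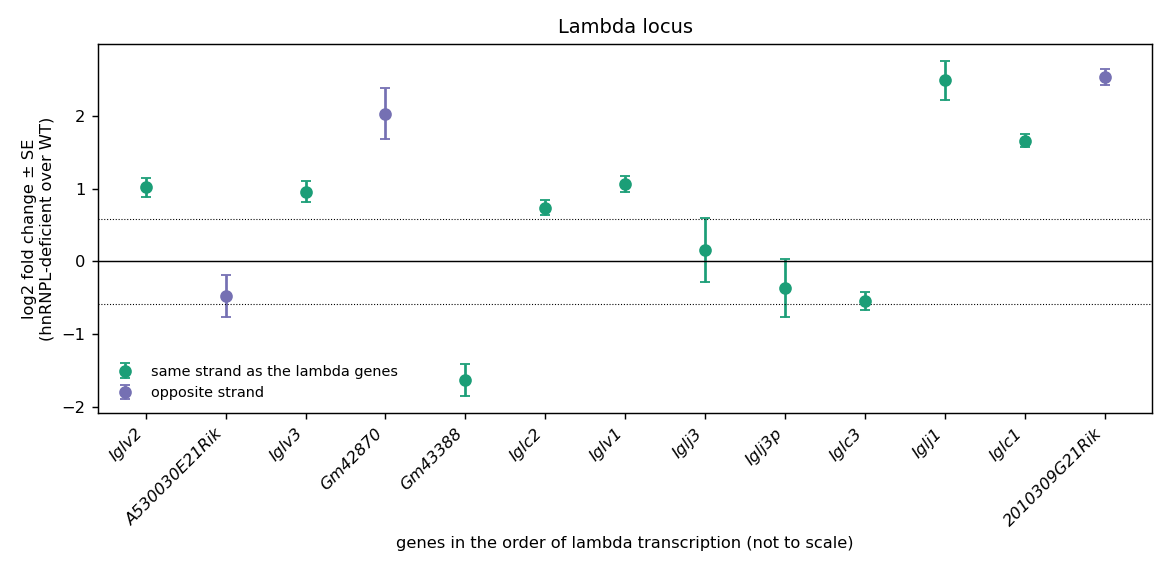
Log2 fold changes (hnRNPL-deficient over WT, ± SE) of genes of the lambda locus in the order in which lambda genes are transcribed, not to scale; dotted lines mark 1.5-fold, and *Iglc4*, with 1 library at 0, is left out. *2010309G21Rik* is placed last but spans the positions from *Iglv1* to *Iglc1*. The 3 *Iglv* genes, *Iglc2*, *Iglj1* and *Iglc1* lie above the upper line, *Iglj3*, *Iglj3p* and *Iglc3* between the lines, and *Gm43388* at -1.64.

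No shift of the kappa V segments as a group was detected. Over the 100 *Igkv* genes tested, the median fold change was 0.00 on the log2 scale, against -0.03 for all tested genes, and single values ranged from -0.48 to 0.74. 52 were above 0 and 48 below, 98 lay within 1.5-fold, and 0 were called in the main limma test. At an unadjusted p under 0.05 there were 5 (5.00%), against 27.4% of all tested genes. On the reads of 5 libraries, edgeR and DESeq2 each called 2 higher, *Igkv4-50* and *Igkv4-86*, as did limma on the same 5 libraries. Of the 100, 7 had all hnRNPL-deficient libraries above all WT libraries and 10 had all below, while 17.7% and 16.3% of all tested genes did so.

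**Figure D4:**
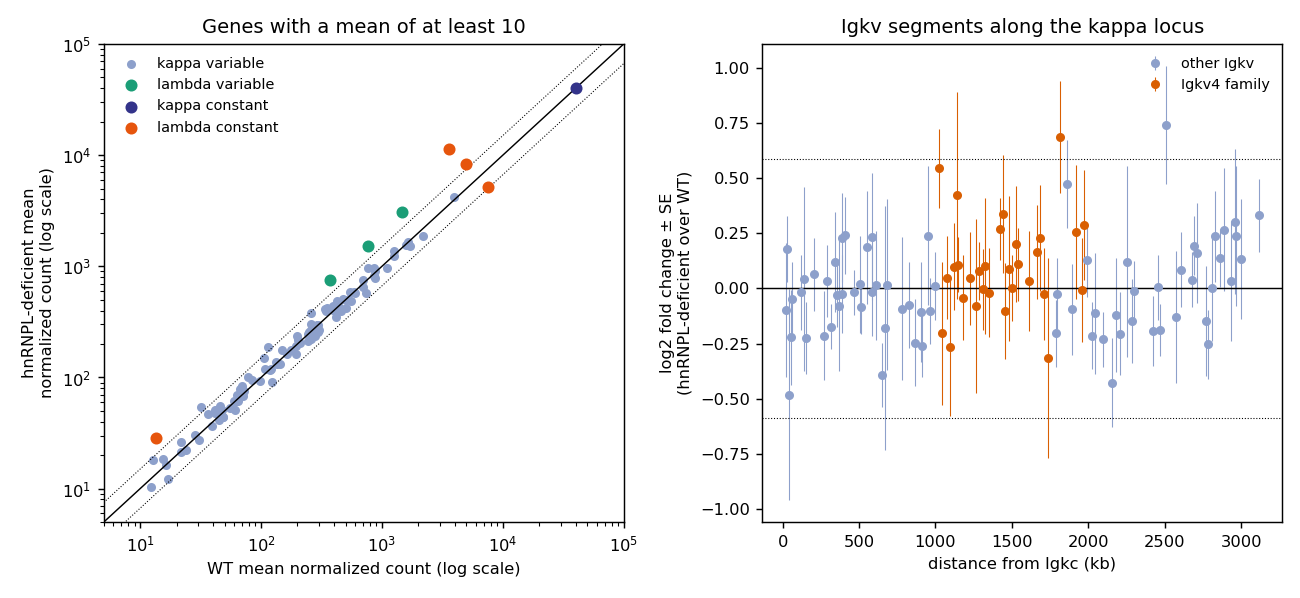
Mean normalized count in WT against hnRNPL-deficient cells for the 108 tested light chain genes on log axes (left; solid line, equality; dotted lines, 1.5-fold), and the log2 fold change ± SE of the 100 tested *Igkv* genes by their distance from *Igkc* in kb (right; dotted lines, 1.5-fold). 3 lambda constant and 3 lambda variable genes lie above the upper dotted line, while 98 *Igkv* genes lie within 1.5-fold.

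Use of the kappa segments was uneven and much alike in all libraries. The 10 *Igkv* with the highest mean share of V counts held 43.5% of all *Igkv* counts on average, between 42.0% and 44.9% in single libraries. The first was *Igkv1-117* (chromosome 6, 68121046 to 68121827), with 11.2%, 8.60% and 9.56% of V counts in WT against 10.6%, 7.96% and 10.7% in hnRNPL-deficient cells. It was also the first per kb of exon among *Igkv*. Its fold change in level was 0.09 on the log2 scale (SE 0.171, adjusted p = 0.781 from limma), and the groups overlapped.

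*Igkv10-96* came next, with 5.49% ± 0.345 of V counts in WT against 4.41% ± 0.666 in hnRNPL-deficient cells, followed by *Igkv1-110* (4.07% ± 0.351 and 3.84% ± 0.489) and *Igkv6-15* (4.27% ± 0.338 and 3.54% ± 0.155). *Igkv10-96* and *Igkv6-15* were lower in every hnRNPL-deficient library as a share and as a level, with fold changes in level of -0.23 and -0.17 on the log2 scale that did not pass the test (adjusted p = 0.275 and 0.315 from limma). *Igkv6-23*, *Igkv17-127*, *Igkv16-104*, *Igkv14-111*, *Igkv17-121* and *Igkv9-120* had mean shares between 2.14% and 3.77%, and their groups overlapped. For comparison, *Iglv1* ranked second of all V genes by mean share, with 3.67% ± 0.476 in WT against 7.15% ± 0.560 in hnRNPL-deficient cells.

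The similarity between libraries can be described by the correlation of log2(normalized count + 1) over the 100 *Igkv* genes, which are not independent replicates and share each library's depth. Pearson's r was 0.974 to 0.991 between WT libraries, 0.974 to 0.981 between hnRNPL-deficient libraries and 0.973 to 0.986 between groups. Pairs from different groups were thus within the range of pairs from the same group, apart from the lowest, at 0.973.

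Of the 5 kappa segments with an unadjusted p under 0.05, 4 had all hnRNPL-deficient libraries above and 1 had all below the WT libraries. *Igkv4-50* (69700767 to 69701287) had 236, 271 and 274 normalized counts in WT against 372, 321 and 454 in hnRNPL-deficient cells (0.54 on the log2 scale, SE 0.179, adjusted p = 0.0891 from limma), which is below 1.5-fold. It was called higher with equal totals, without hnRNPL-deficient library 2, and by edgeR and DESeq2, which left out that same library. *Igkv4-86* had 133, 109 and 99.4 in WT against 236, 135 and 191 in hnRNPL-deficient cells (0.69, SE 0.254, adjusted p = 0.122 from limma). *Igkv2-112* had 32.5, 32.9 and 30.6 in WT against 64.0, 47.5 and 52.1 in hnRNPL-deficient cells (0.74, SE 0.267, adjusted p = 0.115 from limma). *Igkv4-86* was also called in those settings and with a replicate block, and *Igkv2-112* with equal totals, with a replicate block and without a variance trend. *Igkv1-88* had 102.1, 109.8 and 107.8 in WT against 169.5, 140.3 and 137.1 in hnRNPL-deficient cells (0.47, SE 0.198, adjusted p = 0.164 from limma). *Igkv6-32*, the most abundant of the 5 by count, went the other way, with 751, 725 and 758 in WT against 481, 658 and 576 in hnRNPL-deficient cells (-0.39 on the log2 scale, SE 0.146, adjusted p = 0.126 from limma), and it was not called in any setting. These 5 were chosen after their values were seen.

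Of the 7 *Igkv* with all hnRNPL-deficient libraries above WT, 5 belonged to the *Igkv4* family. This family had 30 tested members, 20 of them above 0, and a median fold change of 0.08 on the log2 scale. Its 5 of 30 were not above the 17.7% of all tested genes with this pattern. The 10 on the lower side came from the *Igkv2*, *Igkv3*, *Igkv6*, *Igkv9*, *Igkv10* and *Igkv12* families.

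V families, which group segments of similar sequence, were then compared as a share of all V counts. Of 23 families with counts, 9 did not overlap between groups, 4 higher and 5 lower in hnRNPL-deficient cells. Among all tested genes, 17.7% were higher and 16.3% lower without overlap. The 4 higher were *Iglv1*, *Iglv2*, *Iglv3* and *Igkv4*. *Igkv4* moved only from 12.07% ± 0.0817 to 12.33% ± 0.0865. *Igkv6* had 14.6%, 16.8% and 16.6% in WT against 13.5%, 14.5% and 13.5% in hnRNPL-deficient cells, and *Igkv10*, *Igkv12*, *Igkv9* and *Igkv2* were also lower. Each had an exact permutation p of 0.1, or 0.256 after Benjamini-Hochberg adjustment over the 23 families.

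Because a larger lambda share lowers every kappa share, families were also taken as a share of *Igkv* counts alone. In that measure none of the 20 kappa families was lower without overlap. *Igkv4* was higher, with 12.8%, 13.1% and 12.9% in WT against 13.9%, 14.2% and 14.2% in hnRNPL-deficient cells, and so was *Igkv17*, with 6.22%, 5.32% and 5.42% against 6.41%, 6.24% and 6.24%. Both had an exact permutation p of 0.1, the smallest possible, before any adjustment. Among all tested genes, 17.7% were higher without overlap. *Igkv6* was 17.1% ± 1.43 and 15.8% ± 0.663, with overlapping groups.

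**Figure D5:**
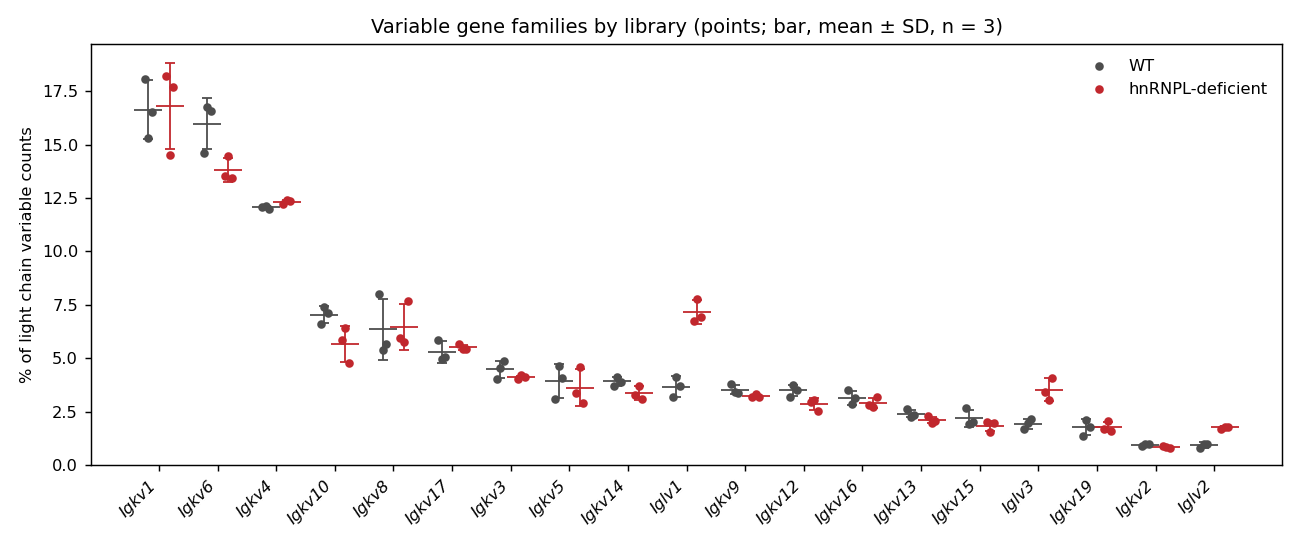
Share of light chain variable counts for each V family with a WT mean of at least 0.5%, per library (points) with the mean ± SD of 3 mice. The 3 lambda families were higher in every hnRNPL-deficient library, *Igkv6* was lower, with at most 14.5% against at least 14.6%, and *Igkv1* and *Igkv8* varied among libraries of both groups.

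Some kappa segments varied more between mice of 1 group than between groups. Among those averaging 200 or more normalized counts, *Igkv5-45*, *Igkv8-28* and *Igkv8-27* had the largest coefficients of variation of their share in WT (36.3%, 31.9% and 31.3%). *Igkv8-27* made up 1.33%, 0.769% and 0.837% of V counts in WT against 0.954%, 0.871% and 1.24% in hnRNPL-deficient cells. *Igkv8-28* was likewise highest in WT library 1 (1.16%) and hnRNPL-deficient library 3 (1.22%). *Igkv5-45* was lowest in WT library 1, at 0.309%, and shares 94 of its 286 stretches of 100 bases with *Igkv5-43*, so its value is uncertain. Of the 100 tested *Igkv*, 54 shared no such stretch with another gene. Among those described above, *Igkv1-117* and *Igkv1-110* shared 16.1% and 16.2% of their stretches with each other, *Igkv10-96* shared 12.3% with *Igkv10-94*, *Igkv17-127* and *Igkv17-121* shared 44 of 314 and 44 of 319 stretches, and *Igkv9-120* shared 1.18%, so their values are uncertain to that extent too.

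Position along the kappa locus, which runs over 3170 kb upstream of *Igkc*, gave no detectable difference between the groups. The 73 segments farthest from *Igkc* (beyond 1458 kb) of the 145 with counts held 56.9%, 53.9% and 54.8% of *Igkv* counts in WT against 57.5%, 54.2% and 55.3% in hnRNPL-deficient cells (exact permutation p = 0.7). The difference was 0.474 percentage points, less than either SD. Segments on the same strand as *Igkc* held 47.3% ± 1.60 and 48.1% ± 2.02, again with overlap.

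Genes of light chain assembly, expression and folding were read from lists chosen with earlier results of these data known. *Rag1*, the recombinase gene, was at 0 in every library, and *Rag2* was at most 4.11 normalized counts. Of 8 tested genes of V(D)J recombination and end joining, 0 were called in either direction by limma, and *Xrcc5* had an adjusted p of 0.0837 with a fold change of -0.32 on the log2 scale. Among 18 regulators of the light chain loci, such as *Pax5*, *Irf4*, *Irf8*, *Spib* and *Ctcf*, 0 were called. *Foxo1*, a transcription factor required for light chain rearrangement in precursor B cells, had 6820, 6089 and 6447 in WT against 8725, 9146 and 8608 in hnRNPL-deficient cells, below the fold threshold (0.45 on the log2 scale, SE 0.0896, adjusted p = 0.0163 from limma). *Rela*, of the same list, went the other way and also passed the p threshold but not the fold threshold. Its fold change was -0.51 on the log2 scale (SE 0.175, adjusted p = 0.0993 from limma), with overlapping groups. The medians of the recombination and regulator lists were -0.20 and 0.01 on the log2 scale, beside -0.03 for all genes.

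Partners of the light chain in the B cell receptor were mostly within 1.5-fold. *Ighm*, the mu heavy chain constant gene, had 139838, 134701 and 130295 normalized counts in WT against 160816, 164486 and 149738 in hnRNPL-deficient cells (0.23 on the log2 scale, adjusted p = 0.224 from limma). Of 7 such genes 1 was called, *Cd81*, a coreceptor component, which was higher (1.02, adjusted p = 0.00684 from limma). *Cd22*, an inhibitory coreceptor, and *Ighd*, the delta heavy chain constant gene, were lower in every hnRNPL-deficient library and passed the p threshold but not the fold threshold (-0.55 and -0.36 on the log2 scale, adjusted p = 0.00987 and 0.0402 from limma). *Cd22* was called lower when library 2 of WT was left out (-0.60). Of 12 genes for immunoglobulin folding and secretion 0 were called, and their summed counts were 356693 ± 19930 in WT against 315462 ± 8101 in hnRNPL-deficient cells. *Vpreb3*, the only tested gene of the surrogate light chain list, had 124, 137 and 151 in WT against 352, 282 and 152 in hnRNPL-deficient cells and was not called (adjusted p = 0.113 from limma).

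Markers of the cells that the sort could hold are given beside these results. All 6 defining B cell markers were present, and their summed counts overlapped, from 472151 to 585787 in WT and from 468646 to 522050 in hnRNPL-deficient cells. For the marker lists, 7.28% higher and 4.08% lower among all tested genes are the comparison. In the marginal zone B cell list, 3 of 7 genes were called higher (*Cd1d1*, *Cr2* and *Cd36*) and 1 lower (*Dtx1*). *S1pr3* and *Myof* were also lower in every hnRNPL-deficient library but not called (-0.43 and -0.48 on the log2 scale, adjusted p = 0.0198 and 0.113 from limma). The list median was 0.03 on the log2 scale. Its summed level ranged from 20610 to 24249 in WT and from 20756 to 28142 in hnRNPL-deficient cells. In the B-1 cell list, 3 of 5 tested genes were called higher (*Bhlhe41*, *Ctla4* and *Spn*) and 1 lower (*Zbtb32*), with sums of 2605 to 3211 and 2352 to 3210, while *Cd5* was at most 22.2. Of 5 follicular B cell markers 0 were called, with sums of 85963 to 99107 and 79874 to 101500.

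In the plasma cell list, 3 of 7 tested genes were called lower (*Tent5c*, *Jchain* and *Derl3*) and 0 higher, with sums of 15618 to 18413 and 14034 to 17761. Some markers of other lineages were at or near 0, and others in the same lists were not. In the T cell list, *Lck* ran from 615 to 1006 and *Thy1* from 117 to 356 normalized counts over the 6 libraries. For T cells, *Cd3e* was at most 1.01 and *Cd4* at most 1.80, 0 of 3 tested genes of that list were called, and the list summed to 1050 to 1182 and 770 to 1157. For myeloid cells, *S100a8* and *S100a9* were at 0 and *Lyz2* at most 2.02. The only tested gene of that list, *Adgre1*, was called higher, so that the list summed to 241 to 320 and 1221 to 1376. The 3 erythroid markers summed to at most 27.3. The calls of *Cr2* and *Cd36* were lost when library 2 or 3 of WT, or library 3 of the hnRNPL-deficient group, was left out, that of *Ctla4* when library 3 of WT or library 2 of the hnRNPL-deficient group was left out, and those of *Jchain* and *Derl3* without any of 4 single libraries each. The part of these marker differences in the lambda values was not tested.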

How the data were processed

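GFP+ splenic B cells from 3 WT and 3 hnRNPL-deficient mice were analysed by RNA-seq. Per the methods of the study, mRNA was selected by poly(A), libraries were read as 100-base pairs, and the authors trimmed reads with fastp (0.23.1), aligned them with STAR (2.7.9a) to mm10 and counted them per gene with featureCounts, strand-specifically, on GENCODE. How multi-mapping reads and V-J-C joints were counted is not given in the sources used here. The deposited values are counts divided by DESeq2 (1.38.2) size factors, a signal that need not be whole. The deposited table also holds the authors' own comparison (mean, log2 fold change with its error, a test score, p-values and a call), which was not used.

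In each library 100% of values were whole multiples of the value of 1 read (tolerance 0.001), which gave 40395186 to 75180749 reads per library. Genes with a mean of at least 10 were tested with limma (3.58.1, R 4.3.3) with a mean-variance trend on log2(normalized count + 1), a fit across all 17640 genes of the 6 libraries. Calls needed a Benjamini-Hochberg adjusted p under 0.1 and 1.5-fold, as in the study's methods. The pseudocount understates changes of low genes. Shares were compared by two-sided exact permutation tests over libraries. edgeR (4.0.16) and DESeq2 (1.42.0) were run on recovered reads of 5 libraries, decided after seeing the data; hnRNPL-deficient library 2 was left out because its value of 1 read, 1.01, could not be told from 1 by the automatic check. The test was tried on simulated data.

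Coordinates and reference sequences are from GENCODE on GRCm38, in a release (vM21) earlier than the one the authors used, which matched all 168 members by identifier. Sequence identity was computed with Biopython (1.88). Genes named are *Hnrnpl*, all constant and *Iglv* genes, the 10 *Igkv* with the highest mean share, any called *Igkv* with a mean of at least 50, the 3 *Igkv* with the largest variation of share in WT and the listed pathway genes; others are marked. The members and lists were chosen with earlier results of these data known. Each library is 1 mouse.

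The alternatives were other pseudocounts, filters, scalings, variance settings and thresholds, a replicate block, each library left out, other sets of members for the shares, and values per kb of exon, the last added after seeing the data.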

Additional observations from a re-analysis of the deposited data

How the results depend on the processing

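The calls of *Iglc1*, *Iglc2*, *Iglv1*, *Iglv2* and *Iglv3* as higher held at the main thresholds under each alternative run. At an adjusted p under 0.05 and 2-fold, 3 light chain genes were called higher, and 610 and 216 genes in all were called higher and lower. With totals made equal without immunoglobulin genes, which moved the median of all genes from -0.03 to 0.03 on the log2 scale, 8 light chain genes were called higher, with *Igkv2-112*, *Igkv4-86* and *Igkv4-50* added. Over all genes, 1424 were then called higher and 600 lower. The number called lower was 1 with no filter on low values (*Igkv1-35*), 1 by edgeR and 1 by DESeq2 (*Iglc3* in both). When single libraries were left out, 5 to 7 light chain genes were called higher and 0 to 1 lower (*Iglc3*, without WT library 1 or hnRNPL-deficient library 2), and the counts over all genes ran from 830 to 1111 higher and from 478 to 696 lower, the lowest of each without WT library 3. The fold change of *Igkc* was 0.054 with equal totals and 0.13 with quantile normalization, and ran from -0.075 to 0.074 with single libraries left out, in no case past the threshold. Other kappa fold changes near 0 also changed sign. With single libraries left out, *Igkv1-117* ran from -0.013 to 0.25, *Igkv1-110* from -0.071 to 0.14, *Igkv6-23* from -0.050 to 0.027, *Igkv16-104* from -0.097 to 0.099 and *Igkv9-120* from -0.038 to 0.12. With equal totals, *Igkv6-23* was at 0.039 and *Igkv16-104* at 0.043, and the latter was at 0.089 by edgeR and 0.065 by DESeq2. The group difference in the distal share of *Igkv* counts ran from -0.451 to 1.34 percentage points with single libraries left out. The causes of these changes were not tested. With 3 libraries per group, differences in shares cannot reach an exact p below 0.1.

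With the replicate number as a block, 1755 genes were called higher and 1018 lower, and 7 light chain genes higher (with *Igkv2-112* and *Igkv4-86* added) and 0 lower. The deviations of same-numbered libraries from their group means correlated at 0.429, 0.320 and 0.0663. Pairs with different numbers ran from -0.458 to 0.305, the highest being WT library 3 with hnRNPL-deficient library 2. Each hnRNPL-deficient library correlated best with the WT library of its number. The margin was small for library 2 (0.320 against 0.305) and library 3 (0.0663 against 0.0501). The labels give only a replicate number, so the main fit used no pairing, and whether the libraries are paired was not tested.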

Other observations

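Near the kappa locus (chromosome 6, 67555497 to 70726966), 1 of 7 further genes tested inside it was called higher and 0 lower. This was *Gm30211*, a long noncoding RNA whose span (70719074 to 70740554) includes *Igkc* on the same strand. It had 947, 1114 and 1263 normalized counts in WT and 1372, 1804 and 2867 in the hnRNPL-deficient libraries (0.80 on the log2 scale, SE 0.247, adjusted p = 0.0724 from limma), without overlap but with a wide spread. Within 1 Mb, 1 of 29 tested genes was called higher (*Gm44321*) and 1 lower (*Cd8b1*, at 31.4 or less in every library). The variable pseudogenes held 0.801% ± 0.0793 of *Igkv* counts in WT and 0.883% ± 0.138 in hnRNPL-deficient libraries (SD, n = 3), with overlapping groups. These genes were chosen after their values were seen.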
